A study of Mus musculus with 2 samples.

Results

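Retinoic acid is made from vitamin A in steps that are carried out by different enzymes. The 9 genes described here, Aldh1a1, Aldh1a2, Aldh1a3, Adh1, Adh7, Rdh10, Rbp4, Crabp2 and Dhrs3, encode enzymes of these steps and carrier proteins of retinoids. They were chosen by name with earlier results of these data known, so that counts of called genes among them are description only. All 9 were found among the 14678 genes of the deposited table. Pools of mouse uteri with and without VEGF repression were compared. Of the 9 genes, 5 had enough copies to be compared, and 4 of these differed at least 1.5-fold. Adh1, Aldh1a2 and Rdh10 were higher in the uteri with VEGF repression, and Dhrs3 was lower. Among all 6547 genes with enough copies, 15.2% were higher and 14.7% lower at this threshold. Rdh10 had enough copies only through the uteri with VEGF repression.

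All mice were double transgenic females that carry VEGFtetO/tetO, in which tet operator sequences sit in the VEGF promoter, together with a beta-AKtg/wt transgene. This transgene expresses the tetR-Krab repressor from the β-actin promoter in all tissues, not in the uterus alone. Dox+ mice, labelled VEGF-normal, ate chow with 200 mg/kg doxycycline, which releases the repressor. Dox- mice, labelled VEGF-repression, were littermates taken off doxycycline at 3 to 4 weeks of age. Uteri were collected at gestation day 2.5 from mice of 9 to 10 weeks, and RNA of 3 uteri was pooled into 1 library per condition. Doxycycline itself and VEGF repression cannot be told apart in this design, and a difference has no replicate check.

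The copy number of a gene is the number of short sequence tags that were assigned to it. The depth was 5985925 clean tags for Dox+ and 5844314 for Dox-, of which 4437506 and 4218459 were counted in genes. Levels are given in TPM, the copies of a gene scaled to 1000000 clean tags of its library. Fold changes are ratios of TPM, with an exact 95% interval for the split of the tags. The intervals cover counting error only, not the variation between mice. Vegfa had 247 copies in Dox+ and 125 in Dox-, so the target of the repression was 1.93-fold lower (1.55 to 2.41) in the library labelled VEGF-repression. The uterine genes Pgr, Esr1, Hoxa10 and Hoxa11 were found in both libraries, at levels that are given with the cell type markers.

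In the uterus as elsewhere, retinol arrives in the blood bound to retinol binding protein, which Rbp4 encodes. Inside the cell RDH10 oxidizes retinol to retinaldehyde, some alcohol dehydrogenases can do the same, and DHRS3 reduces retinaldehyde back to retinol. ALDH1A enzymes then oxidize retinaldehyde to retinoic acid in a step that does not run backwards. CRABP2 carries retinoic acid to its receptors in the nucleus. In rodents, retinoic acid synthesis in the uterus is known to vary over the cycle and in early pregnancy.

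Genes with at least 200 copies in both libraries together were compared, which were 6547 of all genes and 5 of the 9 retinoid genes. Aldh1a3, Adh7, Rbp4 and Crabp2 had fewer copies and are described by their counts. A gene was called at a fold change of at least 1.5. Of the 5 genes, 3 were called higher and 1 lower in Dox-. Among all 6547 genes, 15.2% were called higher and 14.7% lower. At 2-fold or more the same 3 genes were higher, against 4.61% of all genes, and Dhrs3 was no longer called lower, against 5.62%. By the median, the 5 genes had a log2 ratio of 1.47 and all 6547 genes one of 0.03. Rdh10, with fewer than 100 copies in Dox+, reached the limit of 200 only through its copies in Dox-, and its call is no independent support for a direction of the group. Of the 994 genes called higher among all genes, 263 passed in the same way. Of the other 4 retinoid genes 2 were called higher and 1 lower, with a median log2 ratio of 0.79. In bulk tissue, fewer cells of a type and less RNA per cell cannot be told apart.

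**Figure D1:**
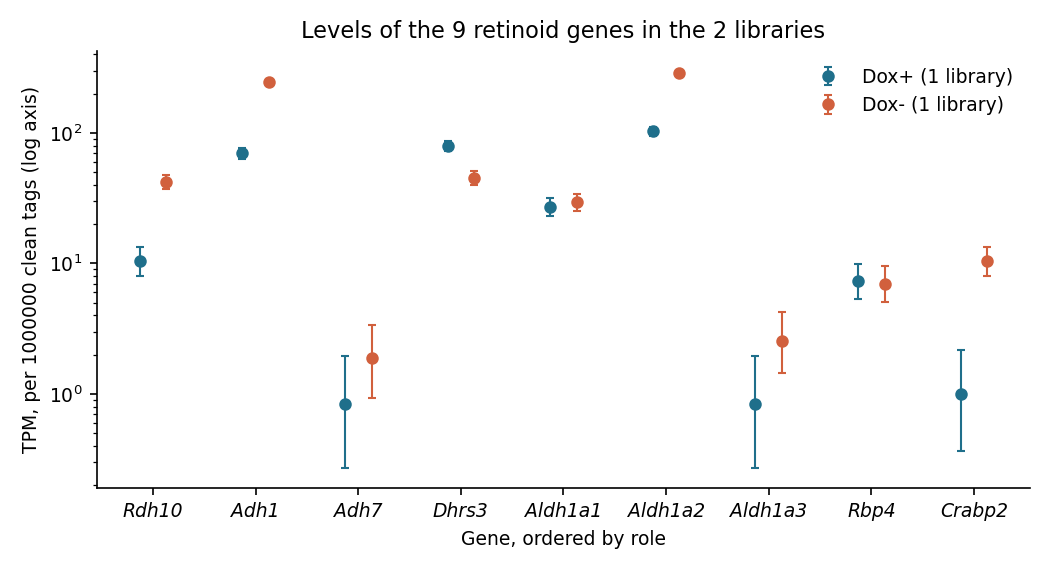
Level of each of the 9 genes in the Dox+ and the Dox- library, in TPM on a log axis. Points are single libraries and bars are exact 95% Poisson intervals, which cover counting error only. The bars of Rdh10, Adh1, Dhrs3, Aldh1a2 and Crabp2 do not overlap between the libraries.

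Rdh10 (chromosome 1, 16095855 to 16123815, plus strand of NCBIM37, the assembly called mm9) encodes the main retinol dehydrogenase of the embryo. It had 63 copies in Dox+ and 247 in Dox-, or 10.5 and 42.3 TPM. The Dox- library was thus 4.02-fold higher (3.03 to 5.38). By the size of its rise it ranked 61 among the 6547 genes. Ranked by copies among all detected genes, Rdh10 moved from percentile 42.8 in Dox+ to percentile 76.5 in Dox-.

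Adh1 (chromosome 3, 137923955 to 137953662, plus strand) encodes the class I alcohol dehydrogenase, which oxidizes ethanol and retinol. It had 417 copies in Dox+ and 1437 in Dox-, or 69.7 and 246 TPM. This was a 3.53-fold rise (3.16 to 3.95) in Dox-. The interval of Adh1 overlapped with that of Rdh10, so that the counts do not settle which of them rose more. An annotated gene on the opposite strand, Gm16559, overlaps exons of Adh1. Tags of both strands were collected by the authors, and the paper reports antisense levels apart from sense levels. Whether tags of Gm16559 entered the counts of Adh1 was not tested.

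Adh7 (chromosome 3, 137880787 to 137896346, plus strand), which encodes the class IV alcohol dehydrogenase of epithelia, lies next to Adh1. It had 5 copies in Dox+ and 11 in Dox-. The ratio of 2.25 had an interval from 0.722 to 8.27, and a difference was not detectable at this depth. Adh1 held 86.0% of the tags of Rdh10, Adh1 and Adh7 together in Dox+ and 84.8% in Dox-.

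Dhrs3 (chromosome 4, 144482730 to 144518112, plus strand) encodes the retinaldehyde reductase that works against RDH10, and its gene is known to be induced by retinoic acid. It had 477 copies in Dox+ and 265 in Dox-, or 79.7 and 45.3 TPM. Dhrs3 was 1.76-fold lower in Dox- (1.51 to 2.05). It was the sole member that was called lower. Among the 6547 genes it stood at percentile 8.58 of the log2 ratios.

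Rdh10 and Dhrs3 act on the same pair of molecules in opposite directions. For each copy of Dhrs3 there were 0.132 copies of Rdh10 in Dox+ and 0.932 in Dox-. This ratio was 7.06 times larger in Dox- (5.10 to 9.82). Since both genes were counted in the same library, the library size does not enter this value. Like the other ratios of gene pairs below, it combines the fold changes of both genes and adds no further observation. All these pairs were chosen after the values were seen. For Adh1 over Dhrs3 the ratio went from 0.874 to 5.42.

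**Figure D2:**
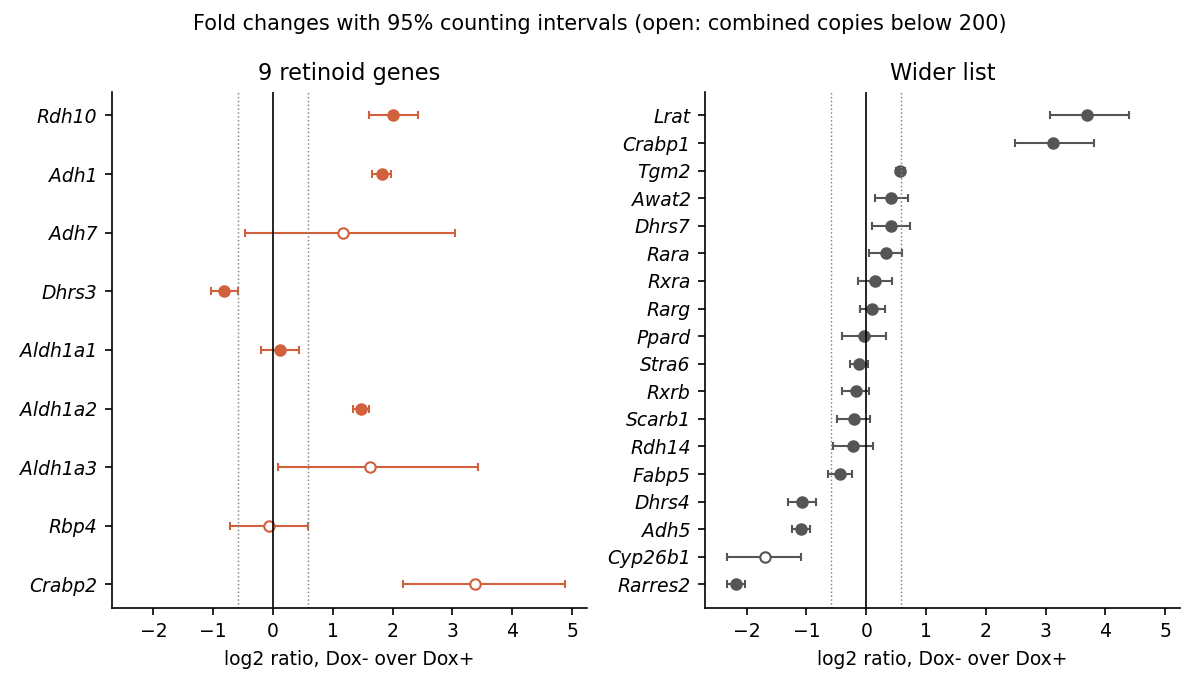
Log2 ratio of Dox- over Dox+ of the 9 genes (left) and of 18 genes of a wider retinoid list (right), with 95% counting intervals. Filled points have at least 200 combined copies and open points fewer, and dotted lines mark a 1.5-fold change. On the left side the filled points of Rdh10, Adh1 and Aldh1a2 lie right of the lines, and that of Dhrs3 lies left of them. The open points of Crabp2, Aldh1a3 and Adh7 lie right of the lines too. Crabp2 has the largest ratio of the 9 genes, with a wide interval.

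The 3 genes of the ALDH1A enzymes differed in their ratios. Aldh1a2 (chromosome 9, 71063596 to 71144050, plus strand), the main retinaldehyde dehydrogenase of the early embryo, had 620 copies in Dox+ and 1674 in Dox-, or 104 and 286 TPM. It rose 2.77-fold in Dox- (2.52 to 3.04). Aldh1a1 (chromosome 19, 20676451 to 20717952, plus strand), known from liver and many epithelia, had 162 copies in Dox+ and 172 in Dox-. Its ratio of 1.09 had an interval from 0.872 to 1.36, and it was not called. The ratio of Aldh1a2 to Aldh1a1 copies was 3.83 in Dox+ and 9.73 in Dox-, a change of 2.54 times (1.998 to 3.23).

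Aldh1a3 (chromosome 7, 73535778 to 73572403, minus strand), known from the developing eye and nose, had 5 copies in Dox+ and 15 in Dox-. The ratio was 3.07 with an interval from 1.06 to 10.8, so that the size of the difference is not settled. Together the 3 genes had 787 copies in Dox+ and 1861 in Dox-, 2.42-fold more (2.23 to 2.64). Aldh1a2 held 78.8% of these tags in Dox+ and 90.0% in Dox-. The rise of this sum was thus mostly that of Aldh1a2. Of the 21-base windows of the Aldh1a1 transcript, 22.2% also occur in Aldh1a7, a near-identical neighbour, and tags that match more than 1 gene were not counted. Aldh1a7 itself had 9 copies in each library. For the other 8 genes less than 1% of the windows occur in another gene.

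The promoter windows of Aldh1a2 and Aldh1a1 are shown because these paralogs had different ratios, and those of Adh1 and Dhrs3 because they moved in opposite directions. For each gene 1 window is shown, the 250 bases before an annotated start, 5′ to 3′ on the strand of the gene, from RefSeq on GRCm38.p6. These windows are not on the build of the gene positions above. Capitals mark the octamer word ATGCAAAT, the CCAAT box and the receptor-binding word AGGTCA, in which the first letter may also be G and the third may also be T, each on either strand.
Aldh1a2, chr9:71215539-71215788, plus strand: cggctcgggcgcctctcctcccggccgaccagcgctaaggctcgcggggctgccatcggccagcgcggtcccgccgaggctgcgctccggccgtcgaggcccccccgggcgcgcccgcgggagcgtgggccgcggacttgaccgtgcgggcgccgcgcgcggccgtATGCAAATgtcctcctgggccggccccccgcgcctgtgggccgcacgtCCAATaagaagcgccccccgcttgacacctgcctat
Aldh1a1, chr19:20601718-20601967, plus strand: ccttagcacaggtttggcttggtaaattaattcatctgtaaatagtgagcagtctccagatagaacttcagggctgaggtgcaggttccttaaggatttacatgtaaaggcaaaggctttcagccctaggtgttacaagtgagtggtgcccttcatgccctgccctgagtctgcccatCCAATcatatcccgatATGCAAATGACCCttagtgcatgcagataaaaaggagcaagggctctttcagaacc
Adh1, chr3:138277335-138277584, plus strand: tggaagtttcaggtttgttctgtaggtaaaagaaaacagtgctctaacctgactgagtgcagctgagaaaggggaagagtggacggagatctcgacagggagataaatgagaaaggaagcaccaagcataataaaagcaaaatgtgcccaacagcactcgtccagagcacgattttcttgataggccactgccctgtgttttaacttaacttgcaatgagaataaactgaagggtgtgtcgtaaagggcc
Dhrs3, chr4:144892577-144892826, plus strand: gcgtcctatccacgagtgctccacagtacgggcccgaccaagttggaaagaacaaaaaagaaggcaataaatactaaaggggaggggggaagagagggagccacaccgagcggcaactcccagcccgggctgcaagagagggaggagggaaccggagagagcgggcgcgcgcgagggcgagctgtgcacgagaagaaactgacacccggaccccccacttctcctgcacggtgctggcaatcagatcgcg

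Aldh1a2 and Aldh1a1 share the octamer and the CCAAT box in the windows shown. Aldh1a1 has another annotated start, and its window, chr19:20492333-20492582, holds neither word. Dhrs3 has 3 windows, of which 2 hold a CCAAT box and the one shown holds none. The octamer starts 84 bases before the start of Aldh1a2 and 56 bases before that of Aldh1a1, and the CCAAT box 36 and 72 bases before. Among 32851 windows of all genes, 33.8% hold the CCAAT box, 1.60% hold the octamer and 0.767% hold both words. A CCAAT box also stands in windows of Adh7 and Rbp4. The octamer and the CCAAT box were chosen after the sequences were seen. In Aldh1a1 the word TGACCC, which is GGGTCA on the other strand, overlaps the octamer. A receptor-binding word was found in 3 of the 10 windows of the 6 retinoid genes with a window, and 38.6% of all windows hold one. None of the 10 windows held a direct repeat of these words at a spacing of 1, 2 or 5 bases, against 0.164%, 0.174% and 0.0883% of all windows. A match of letters is no evidence of binding, and the lack of a match concerns only this stretch.

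Of the carriers, Crabp2 (chromosome 3, 87752588 to 87757298, plus strand) had the largest ratio of the 9 genes. Only 6 copies were counted in Dox+ and 61 in Dox-, or 1.002 and 10.4 TPM. The ratio was 10.4 with an interval from 4.52 to 29.5. The lower bound lies above 1.5-fold, but with 67 combined copies Crabp2 was below the limit of 200 and was not called. Rbp4 (chromosome 19, 38191110 to 38199811, minus strand) had 44 copies in Dox+ and 41 in Dox-. Its ratio of 0.954 had an interval from 0.608 to 1.49. A change of Rbp4 was not detectable at this depth.

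**Figure D3:**
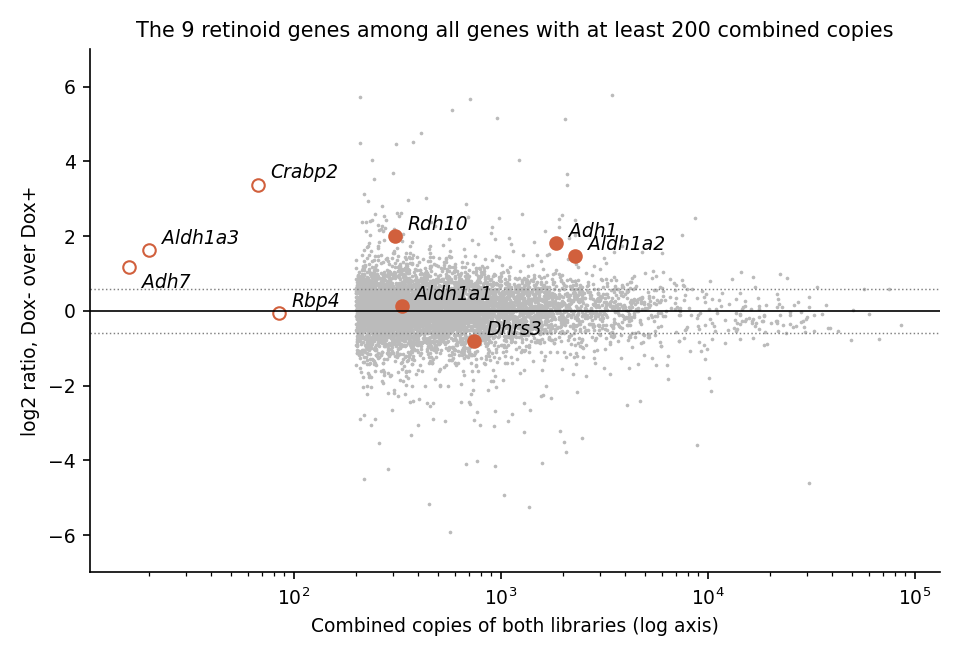
Log2 ratio of Dox- over Dox+ against the combined copies on a log axis, for genes with at least 200 combined copies (gray) and for the 9 retinoid genes (orange, open where below 200). Dotted lines mark a 1.5-fold change, and 2 gray genes lie outside the vertical axis. Rdh10, Adh1 and Aldh1a2 lie above the bulk of the genes with like copy numbers, Aldh1a1 lies within it and Dhrs3 lies below the lower line.

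Levels of different genes were compared after division by transcript length, as TPM per kilobase. In Dox+ Adh1 was first with 46.7 TPM per kilobase, followed by Aldh1a2 with 45.7, and their intervals overlapped. Dhrs3 with 34.1 and Aldh1a1 with 13.2 TPM per kilobase came next, and both were separated from their neighbours. Below them stood Rbp4 with 5.91 TPM per kilobase and Rdh10 with 2.93. Crabp2, Adh7 and Aldh1a3 had the lowest levels, and their intervals overlapped, as did those of Rdh10 and Crabp2. In Dox- Adh1 with 165 TPM per kilobase and Aldh1a2 with 127 were again first, and now their intervals did not overlap. Dhrs3 kept the third place with 19.4 TPM per kilobase. The intervals of Aldh1a1 with 14.3 TPM per kilobase and Rdh10 with 11.8 overlapped, as did those of Rdh10 and Crabp2 with 11.2. Rbp4 with 5.64 TPM per kilobase took the seventh place, after the fifth in Dox+, with almost the same level. Aldh1a3 and Adh7 were last in Dox- too, and their intervals overlapped. The paper describes tag profiling, and if each transcript gives tags at 1 site only, length should not be divided out. The order by plain TPM then applies, and the order above does not. By plain TPM Aldh1a2 was first in both libraries. Dhrs3 with 79.7 TPM stood above Adh1 with 69.7 in Dox+. Rdh10 stood above Rbp4 in both libraries, with 10.5 and 7.35 TPM in Dox+, and above Aldh1a1 in Dox-.

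A wider list of 50 genes of retinoid handling was followed for context. Of these, 39 were in the table, 18 had at least 200 combined copies, 2 were called higher and 3 lower. These are 11.1% and 16.7% of the 18 genes, against 15.2% and 14.7% of all genes. Their median log2 ratio was 0.03. Both genes called higher, Lrat and Crabp1, reached 200 combined copies only through Dox-, where they were high. Of the other 16 genes 0 were called higher and 3 lower, with a median log2 ratio of -0.08. The members of the list are given here by role.

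Both genes called higher are for storage and binding. Lrat, which encodes the enzyme that esterifies retinol for storage, had 22 copies in Dox+ and 279 in Dox-, a 12.99-fold rise (8.41 to 21.1). Crabp1, a paralog of Crabp2 that binds retinoic acid in the cytosol, had 23 and 195 copies, a rise of 8.68-fold (5.62 to 14.0). The copies of Crabp2 per copy of Crabp1 were 0.261 in Dox+ and 0.313 in Dox-, and the interval of this change, 0.447 to 3.77, does not settle a direction. Stra6, the membrane receptor for the plasma retinol carrier, had 801 and 718 copies and was not called. Awat2, an acyltransferase with the most copies of the ester group over both libraries, had 202 and 264 copies and was not called.

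No other listed oxidoreductase was called higher as Adh1 and Rdh10 were. Adh5, the class III alcohol dehydrogenase that acts mainly on glutathione-bound formaldehyde, fell from 1183 copies in Dox+ to 541 in Dox-, 2.13-fold (1.93 to 2.37). Adh1, Adh5 and Adh7 belong to the same gene family. There were 0.352 copies of Adh1 for each copy of Adh5 in Dox+ and 2.66 in Dox-, a change of 7.54 times (6.47 to 8.77). Dhrs4, a carbonyl reductase that can act on retinaldehyde, fell from 478 to 222 copies, 2.10-fold (1.79 to 2.48). Of the 12 listed oxidoreductases in the table, 4 had enough copies, none was called higher and 2 were called lower. Among all genes these shares were 15.2% and 14.7%. Dhrs7 had 143 and 186 copies, a ratio of 1.33 (1.07 to 1.67), and was not called. Rdh14 had 161 and 135 copies, and its interval includes 1.

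Retinoic acid is broken down by CYP26 enzymes. Cyp26b1 had 99 copies in Dox+ and 30 in Dox-, 3.22-fold lower (2.12 to 5.02), with 129 combined copies and therefore no call. Cyp26a1 had 32 and 25 copies, and its interval includes 1. The ratio of Aldh1a2 to Cyp26b1 copies, of a synthesizing to a degrading enzyme, went from 6.26 in Dox+ to 55.8 in Dox-. This was a change of 8.91 times (5.80 to 14.0), which combines the fold changes of both genes for a pair chosen after the values were seen.

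**Figure D4:**
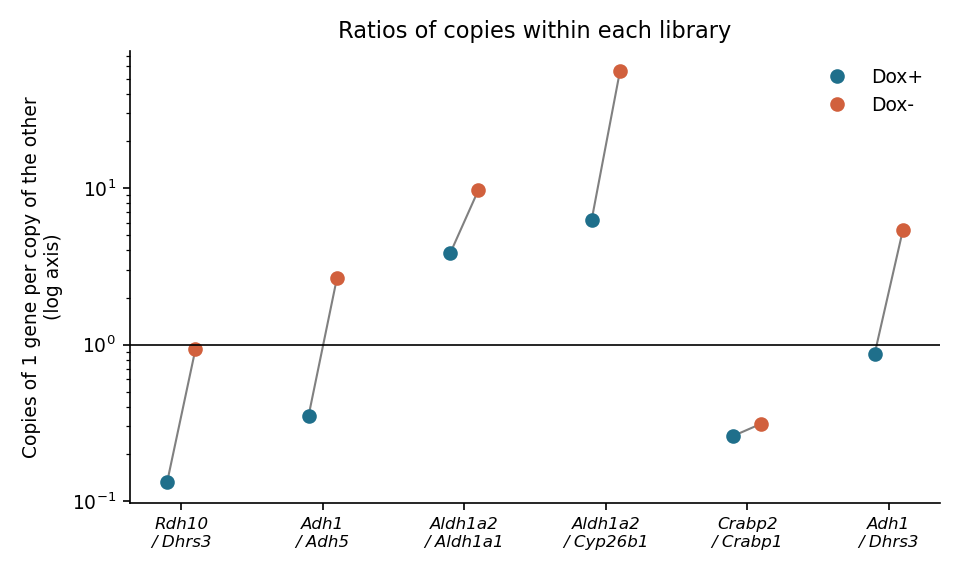
Copies of the upper gene per copy of the lower gene within the Dox+ and the Dox- library, on a log axis, for 6 pairs chosen after the values were seen. Gray lines join the libraries. The ratio is higher in Dox- for each pair, by little for Crabp2 over Crabp1 and by over 2-fold for the others.

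The receptors showed no called change. All 7 listed RAR, RXR and PPARδ genes were in the table, 5 had enough copies, and none of these was called. Among all genes 15.2% were called higher and 14.7% lower, so that no call among 5 genes says little about them as a group. Rarg, with the most copies, had 376 in Dox+ and 394 in Dox-, a ratio of 1.07 (0.929 to 1.24). Scarb1, which takes up lipoprotein lipids and carotenoids, had 248 and 209 copies and was not called.

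Genes known to respond to retinoic acid went different ways. Rarres2, which encodes the secreted protein chemerin, fell from 1927 copies in Dox+ to 416 in Dox-, 4.52-fold (4.07 to 5.04). Tgm2, a transglutaminase, had 2245 and 3250 copies, and its ratio of 1.48 (1.40 to 1.57) lay just below the threshold of 1.5. Dhrs3, itself such a gene, was lower in Dox- as given above, while Crabp2 had more tags in Dox-. No direction was shared by these genes.

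Cell type markers moved between the libraries too. The summed level of 5 epithelial markers was 790 TPM in Dox+ and 1046 in Dox-, with 1 of 5 called higher and Krt19 the most abundant. The 6 stromal markers, led by Col1a1, summed to 7796 and 9293 TPM, with none called higher and 2 called lower. Among these 2 was Hand2, a transcription factor of the stroma that was 6.73-fold lower. The sum followed Col1a1, which went from 3845 to 5766 TPM. Dcn was higher in Dox- too, the other stromal markers were lower, and the median log2 ratio of the 6 was -0.25. The sums of the 5 smooth muscle markers, led by Tagln, were 4972 and 3463 TPM, and 2 of 5 were called lower. The 5 endothelial markers, led by Cdh5, summed to 174 and 116 TPM, with 2 of the 3 tested called lower. Aldh1a2 is also known from the mesothelium, and the 4 mesothelial markers, led by Wt1, summed to 69.0 TPM in Dox+ and 31.1 in Dox-. Of these 4, Wt1 alone had enough copies and was called lower. The 4 adipocyte markers in the table, led by Cfd, summed to 245 and 192 TPM. The 2 leukocyte markers in the table summed to 43.4 and 49.3 TPM and went opposite ways, Tyrobp from 35.2 to 27.0 TPM and Ptprc from 8.19 to 22.2 TPM. Of 4 ovary and oviduct markers in the table, the sum was 23.6 and 36.8 TPM, mostly Foxl2 with 104 and 198 copies. The oviduct gene Ovgp1 went the other way, with 25 copies in Dox+ and 2 in Dox-, and Inha was at 0 in Dox+. Of the liver markers only Ttr was in the table, with 47 copies in Dox+ and none in Dox-. The 4 uterine genes summed to 1093 TPM in Dox+ and 575 in Dox-. Of these, Pgr, the progesterone receptor, was 1.87-fold and Esr1, the estrogen receptor α, 1.63-fold higher, while the homeobox genes Hoxa10 and Hoxa11 were 2.87-fold and 3.20-fold lower. The part of these shifts in the retinoid genes was not tested.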

How the data were processed

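RNA of 3 pooled uteri per condition was measured by digital gene expression (DGE) tag profiling. The authors removed adaptor-only tags, low quality tags and tags seen once, matched clean tags to mouse reference transcripts of mm9, and deposited counts of unambiguous tags per gene, without normalization. The TPM values deposited by the authors are copies per 1000000 clean tags, without length correction and with a placeholder for genes without a tag. CASAVA is named in the submitters' processing notes. The aligner and restriction enzyme are not given in the sources used here. The labels mention mRNA fragmentation and the paper describes tag profiling, which was not resolved. Columns of ratios, P-values and FDR in the table are the authors' comparisons and were not used.

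Clean tags per library were recovered from the deposited counts and TPM. All 14050 TPM values of genes with a tag in Dox+ and all 13948 in Dox- equal copies per 1000000 clean tags after rounding. Fold changes were computed from counts without a pseudocount. A library with 3 copies or fewer was set to 3 (0.501 TPM for the Dox+ and 0.513 TPM for the Dox- library). A fold against a library at 0 depends on this floor. Intervals are exact Clopper-Pearson (folds), Poisson (levels) and conditional odds ratio (ratios within a library) intervals at 95%. Since each condition has 1 library, the conditions were not tested against each other, and the script was checked on simulated data. All 9 genes, the called genes of a wider list and the most abundant gene of each role and marker list are named, except 1 gene of the wider list that is not reported here. The members and lists were chosen with earlier results of these data known. Positions and transcript lengths are from the GENCODE annotation of NCBIM37, with the longest coding transcript that has a CCDS entry. The alternatives were other library sizes, filters, call rules, a pseudocount and other lengths. Python 3.11.15 with scipy 1.17.1 and R 4.3.3 with edgeR 4.0.16 and DESeq2 1.42.0, for scaling factors only, were used.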

Additional observations from a re-analysis of the deposited data

How the results depend on the processing

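No paired analysis was possible because each condition has 1 library, and no library could be left out. The library size was replaced by the counted tags, TMM factors, median-ratio factors or clean tags without the 10 most abundant genes, and a pseudocount of 1 and the deposited TPM were also tried. The log2 ratios of the 9 genes stayed within their counting intervals in 54 of 54 such values, and these settings moved the median of all genes by less than 0.1. The same number of retinoid genes, 3 higher and 1 lower, was called under each of these settings. A library size shifts the ratios of all genes by the same amount, and the deposited TPM repeat the main ratios up to rounding. Such settings could hardly move a ratio out of its interval. With a minimum of 20 combined copies 5 of the 8 retinoid genes admitted were called higher, and without a filter 6 of 9. At 2-fold 0 were called lower. Over all genes, 2385 were higher and 2256 lower from 20 copies, 2869 and 2830 without a filter, 302 and 368 at 2-fold, and 472 and 515 with the whole interval beyond 1.5-fold. Of all genes called, 51.4% were higher from 20 copies and 50.3% without a filter. In the wider list 4 were higher and 10 lower from 20 copies. There were 6 and 11 without a filter, and 2 and 6 from 100 copies. These counts are description only, and no direction of the list is read from them. With the filters, the change of the counts follows from the number of genes admitted. Without division by length 3 of the 9 genes kept their place in the order of levels in Dox+ and 5 in Dox-, and with the shortest transcript 6 did in Dox+. Crabp2, Aldh1a3 and Adh7 are limited by depth, and variation between mice cannot be estimated.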

Other observations

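Some genes of the wider list with fewer than 200 combined copies had counting intervals that leave out 1, and they were chosen here after their values were seen. Among the short-chain retinol dehydrogenases, Rdh1 had 54 copies in Dox+ and 12 in Dox-, 4.39-fold lower (2.32 to 9.02). Rdh9 had 73 and 31 copies, 2.30-fold lower (1.49 to 3.62), and Rdh13 had 86 and 39 copies, 2.15-fold lower (1.46 to 3.23). All of them went the opposite way to Rdh10, while Rdh11 with 44 copies in each library and Rdh12 with 22 and 25 had intervals that include 1. Nrip1, a nuclear receptor coregulator that retinoic acid is known to induce, had 18 copies in Dox+ and 69 in Dox-, a ratio of 3.93 (2.31 to 7.01).

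Both carriers without a tag in Dox- were present in Dox+. Ttr, which encodes the plasma partner of retinol binding protein, went from 47 copies to 0. It was 15.3-fold lower with the Dox- library set to 3 copies, and its counting interval starts at 12.0-fold. Rbp7, a cellular retinol binding protein known from adipose endothelium, went from 23 copies to 0. With the same floor of 3 copies Rbp7 was 7.49-fold lower, and its interval starts at 5.61-fold.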
